A study of Danio rerio with 6 samples.

Results

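Animals that live with oxygen and with microbes meet superoxide and hydrogen peroxide, and a set of enzymes removes them in steps. Superoxide dismutases turn superoxide into hydrogen peroxide. Catalase, glutathione peroxidases and peroxiredoxins then reduce the peroxide, the glutathione peroxidases with electrons from glutathione and most peroxiredoxins with electrons from thioredoxin. Thioredoxin reductase and glutathione reductase restore these carriers with NADPH. The members described here were the probesets of a zebrafish array whose platform gene symbol begins with gpx, prdx or sod and a digit, begins with txn, or is cat. The rule found 32 of the 15502 tested probesets, which stand for 24 of 8793 named genes: 5 glutathione peroxidases, 5 peroxiredoxins, 2 thioredoxins, 1 thioredoxin reductase, 2 superoxide dismutases and catalase, with 2 thioredoxin interacting proteins and 6 thioredoxin domain or thioredoxin-like genes. The symbol pattern takes the last 2 kinds for their names, and not all of them act on peroxide.

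RNA came from whole zebrafish larvae of strain C32 at 6 days post-fertilization, reared under gnotobiotic conditions. Germ-free larvae had no microbiota throughout. Colonized larvae, labelled ex-germ-free conventionalized, were also reared without microbes to day 3 and then carried a microbiota of conventional zebrafish to day 6. Each group had 3 pools of 28 to 80 larvae, 1 array per pool, and a replicate is such a pool. The comparison asks which transcripts differ with 3 days of colonization. In whole-animal RNA, fewer cells of a type and less RNA per cell cannot be told apart.

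Array medians lay between 86.0 and 93.8 on the linear intensity scale. The title of germ-free replicate 3 ends in a number out of run with those of the others. The title does not say what that number stands for. Without this pool all 6 member calls described below stood. To gauge RNA quality, 3' and 5' control probesets of acta1 were compared, and their log2 ratio was 2.35 to 2.64 in germ-free and 2.79 to 3.00 in colonized pools, so it moved with the groups, while that of gapdh overlapped (0.308 to 0.603 and 0.274 to 0.485). The part of RNA quality in the results below was not tested. Of the markers fixed for 6 tissues and cell types (neutrophils and macrophages, erythrocytes, hepatocytes, enterocytes, skeletal muscle, lens and retina), 0 measured genes had a mean below an intensity of 32 in both groups.

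Colonized larvae had more transcript of 4 members: the glutathione peroxidase genes gpx1b and gpx1a, the peroxiredoxin gene prdx1 and the thioredoxin gene txnb. The ratio of mean intensities, colonized over germ-free, was 3.29 for gpx1b, 1.59 for gpx1a, 2.05 to 2.85 over the 3 probesets of prdx1 and 2.29 for txnb. The other 20 genes were not called, among them both superoxide dismutases and catalase. Of the 32 probesets 6 were called higher, 0 lower and 26 not called at an adjusted p under 0.05 (limma, Benjamini-Hochberg over all 15502 probesets). Over all tested probesets 1.7% were called in either direction and 1.28% were called higher. The probeset count takes prdx1 3 times. By gene, on the brightest probeset of each, 4 of 24 members were called, against 2.05% of all named genes in either direction. Colonized pools all lay above germ-free pools for 9 member probesets and all below for 1, against a background of 19.6% in either direction and 12.5% with colonized above. The median difference was 0.024 on the log2(intensity + 32) scale for the members and 0.018 for all probesets. Here and below, every log2 difference is colonized minus germ-free on that scale, which understates the change of dim probesets, and adjusted p-values come from this limma fit.

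**Figure D1:**
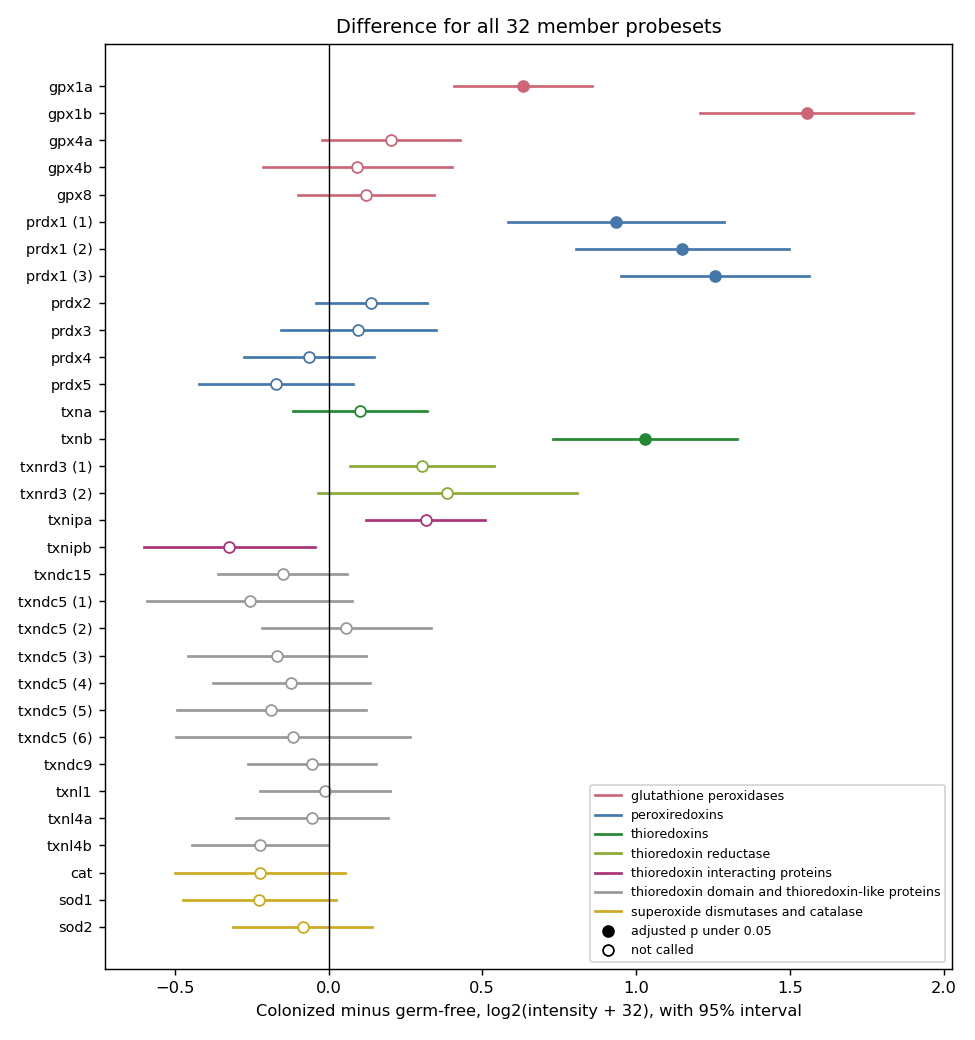
Log2 difference (colonized minus germ-free, log2 of intensity + 32) on the horizontal axis for each of the 32 member probesets, as points with 95% intervals from the limma fit, coloured by role and numbered from the brightest where a gene has several; filled points have an adjusted p under 0.05. The 6 filled points belong to gpx1b, gpx1a, prdx1 and txnb and lie between 0.63 and 1.56; the other 26 lie between -0.32 and 0.39.

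Among the glutathione peroxidases, the cytosolic type encoded by gpx1a and gpx1b changed. Both carry selenocysteine at the active site and reduce hydrogen peroxide and small organic peroxides. For gpx1b the germ-free pools had intensities of 214, 188 and 228 and the colonized pools 586, 593 and 893. The groups did not overlap, and colonized replicate 3 stood well above the other two. The mean rose from 210.0 ± 20.3 to 690.4 ± 175 (SD, n = 3 pools per group), a log2 difference of 1.56 ± 0.16 SE with a 95% interval of 1.21 to 1.90 (limma adjusted p = 0.000575).

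For gpx1a the germ-free pools had 541, 535 and 561 and the colonized pools 766, 878 and 958. The germ-free pools lay close together, and the lowest colonized pool was above all of them. The mean rose from 546 ± 13.9 to 867 ± 96.3 (SD, n = 3 pools per group), a log2 difference of 0.63 ± 0.10 SE with an interval of 0.41 to 0.86 (limma adjusted p = 0.0107). This call was lost without colonized replicate 2 (limma adjusted p = 0.0852), although the difference stayed at 0.62.

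The remaining glutathione peroxidases were not called. The genes gpx4a and gpx4b encode the form that reduces lipid hydroperoxides in membranes. For gpx4a the germ-free pools had 979, 902 and 1106 and the colonized pools 1072, 1120.3 and 1256, so the groups overlapped (difference 0.20, interval -0.022 to 0.43, limma adjusted p = 0.434). For gpx4b they had 527, 409 and 518 and 438, 511 and 614, again overlapping (0.094, interval -0.21 to 0.40, limma adjusted p = 0.822). The intervals of these 2 genes end below the estimate of 0.63 for gpx1a, but that of gpx4a overlaps the gpx1a interval (0.41 to 0.86). The signal of gpx8, an endoplasmic reticulum member of the family, was dim, at 16.02 to 25.4 in germ-free and 23.9 to 32.1 in colonized pools, which overlapped (difference 0.12, limma adjusted p = 0.646).

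Among the peroxiredoxins, which reduce peroxide through a reactive cysteine, prdx1 changed on all 3 of its probesets, which differ in brightness. The brightest had 306, 305 and 297 in germ-free and 496, 551 and 818 in colonized pools. The next had 315, 268 and 249.7 against 530.3, 623 and 838, and the dimmest 109, 86.3 and 106 against 239, 271 and 351. On each probeset the groups did not overlap, and colonized replicate 3 was the highest pool and colonized replicate 1 the lowest of its group. The log2 differences were 0.93 ± 0.16 SE, 1.15 ± 0.16 and 1.26 ± 0.14 from the brightest to the dimmest (limma adjusted p = 0.0149, 0.00398 and 0.00108). The call of the brightest was lost without germ-free replicate 1, germ-free replicate 2 or colonized replicate 2 (limma adjusted p = 0.0562, 0.0549 and 0.0623), whereas the other 2 probesets were called on leaving out any single pool. The 3 probesets share a gene and the 6 pools, and do not replicate the result.

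The other 4 peroxiredoxins were not called. The gene prdx2, whose product is abundant in red blood cells, had 1772, 1786 and 1700.4 in germ-free and 1815, 1867 and 2132 in colonized pools. All colonized pools lay above all germ-free pools, but by little (difference 0.14, interval -0.042 to 0.32, limma adjusted p = 0.505). The mitochondrial peroxiredoxin gene prdx3 went from a mean of 253 ± 30.7 to 272 ± 24.1, prdx4 of the secretory pathway from 234 ± 8.72 to 223 ± 14.6, and prdx5 from 305 ± 33.6 to 268 ± 27.4 (SD, n = 3 pools per group). For each of the 3 the groups overlapped. Their intervals together run from -0.42 to 0.35, below the lower bound of 0.58 for the brightest prdx1 probeset.

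Thioredoxins pass electrons to peroxiredoxins and other proteins through a pair of cysteines. For txnb the germ-free pools had 139.97, 161 and 128 and the colonized pools 263, 347 and 372. The groups did not overlap, and colonized replicate 1 was the lowest of its group. The mean rose from 143 ± 17.04 to 327 ± 57.3 (SD, n = 3 pools per group), a log2 difference of 1.03 ± 0.13 SE with an interval of 0.73 to 1.33 (limma adjusted p = 0.00349). Its paralog txna had 1727, 1484 and 1499 against 1513, 1691 and 1867 (difference 0.10, interval -0.12 to 0.32, limma adjusted p = 0.702). The groups overlapped, and colonized replicate 3 was again the highest pool.

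**Figure D2:**
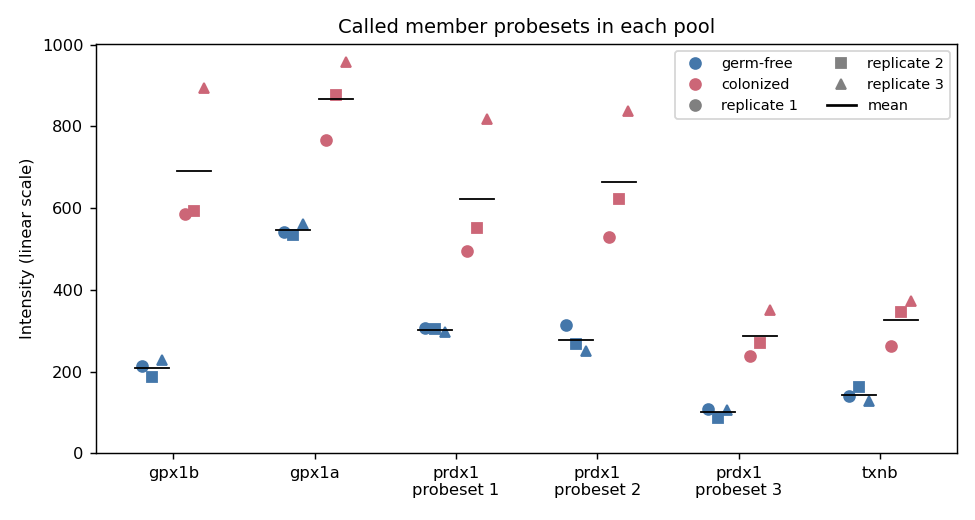
Intensity on a linear scale from 0 for the 6 called member probesets in each of the 6 pools, with symbols for the replicates and a black line at each group mean; prdx1 probesets run from the brightest to the dimmest. No germ-free pool reaches a colonized pool of the same probeset, and colonized replicate 3 is the highest pool on all 6, at 893 for gpx1b and 838 for the second prdx1 probeset.

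Thioredoxin reductase, a selenoprotein that recharges thioredoxin with NADPH, was measured on 2 probesets of txnrd3, a gene that also carries the synonym txnrd1. The brighter had 613, 542 and 617 in germ-free and 743, 657 and 814 in colonized pools, without overlap (difference 0.30, interval 0.069 to 0.54, limma adjusted p = 0.242). The dimmer overlapped between the groups, with a mean of 179.8 ± 46.8 against 244 ± 58.9 (difference 0.39, limma adjusted p = 0.425). Its difference was 0.20 and 0.24 when the third germ-free or the third colonized pool was left out, and 0.17 with array weights. Neither probeset passed the test.

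Thioredoxin interacting proteins bind thioredoxin and limit its activity, as known in mammals. The paralogs txnipa and txnipb differed in opposite directions. The gene txnipa had 1118, 972 and 1149 in germ-free and 1331, 1366 and 1349 in colonized pools. The gene txnipb had 169, 162 and 120.4 against 104, 109 and 127. The colonized pools of txnipa lay above the germ-free pools and close together, whereas the txnipb groups overlapped at one pool. Neither was called, with differences of 0.32 (interval 0.12 to 0.51, limma adjusted p = 0.129) and -0.32 (interval -0.60 to -0.044, limma adjusted p = 0.299).

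Superoxide dismutases and catalase, the enzymes before and beside the peroxidases, had 0 calls in 3 probesets. The cytosolic enzyme gene sod1 had 577, 505 and 582 in germ-free and 426, 449 and 538 in colonized pools, overlapping at 505 and 538 (difference -0.23, interval -0.47 to 0.023, limma adjusted p = 0.430). The mitochondrial enzyme gene sod2 had 342 ± 24.1 against 321 ± 26.0 (SD, n = 3 pools per group; difference -0.084, interval -0.31 to 0.14). The catalase gene cat had 422, 373 and 448 against 305, 337 and 414 (difference -0.22, interval -0.50 to 0.052, limma adjusted p = 0.483). No interval of the 3 reached above 0.14, so a rise of the size seen for gpx1a lies outside each of them.

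The 6 thioredoxin domain and thioredoxin-like genes had 0 calls on 11 probesets, with differences from -0.26 to 0.058. Of the 11 probesets 6 belong to txndc5, a protein folding enzyme of the endoplasmic reticulum. The txndc5 probesets disagreed in sign: the second brightest had 119 ± 24.02 against 124 ± 7.55, a difference of 0.058, and the other 5 had differences of -0.26 to -0.12. The colonized pools of txndc15 lay below the germ-free pools (364 ± 18.4 against 325 ± 16.8, difference -0.15, limma adjusted p = 0.542). The splicing factor genes txnl4a and txnl4b were dim, with means of 51.5 to 74.5.

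Pairs of related or like-acting genes were compared for how far they moved. Within each array the log2 value of one gene was taken from the other. The 2 groups were compared by an exact two-sided permutation test over the 6 pools. Its smallest possible p is 0.1, so that no pair could pass 0.05. The gap of gpx1b to gpx1a was higher in colonized pools by 0.92, with within-group SDs of 0.093 and 0.22, and the groups did not overlap (exact p = 0.1, 0.125 adjusted over 5 pairs). The gap of txnb to txna was higher by 0.93 (SDs 0.20 and 0.11) and that of prdx1 to prdx2 by 0.80 (SDs 0.018 and 0.24), each with the same exact p and no overlap. The gap of sod2 to sod1, paired by activity and not as paralogs, was higher by 0.14 without overlap and with the same exact p. That of gpx4b to gpx4a was lower by 0.11 with overlap (difference -0.11, exact p = 0.4). A gap describes unequal change within a pair, not that one gene stayed constant. Whether the probes of one gene also bind the other was not tested.

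**Figure D3:**
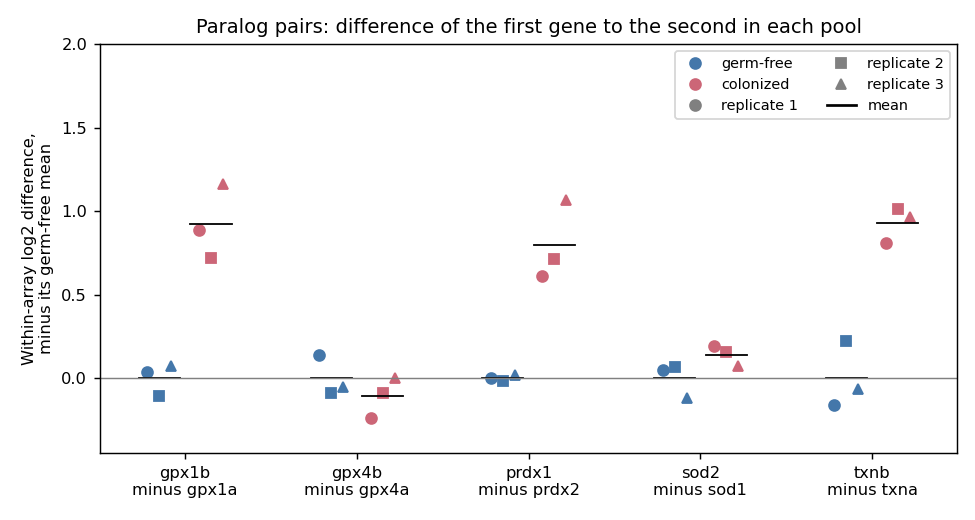
Within-array log2(intensity + 32) difference of the first gene to the second, minus its germ-free mean, for 5 gene pairs in each pool, with black lines at the group means. The pair of sod2 and sod1 was set by activity and is not one of paralogs. Colonized means lie at 0.92 for gpx1b to gpx1a, 0.80 for prdx1 to prdx2 and 0.93 for txnb to txna, and at 0.14 for sod2 to sod1 and -0.11 for gpx4b to gpx4a.

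Pools of one group were not alike for these genes. Colonized replicate 3 was the highest colonized pool for 24 of the 32 member probesets, 75% against 44.7% of all probesets, and germ-free replicate 1 the highest germ-free pool for 20, 62.5% against 40.4%. The median deviation from the group mean was 0.14 for the members in colonized replicate 3 and 0.025 for all probesets in that pool. Without colonized replicate 3 all 6 member calls stood, at differences of 1.36 for gpx1b, 0.56 for gpx1a, 0.73 to 1.12 for prdx1 and 0.94 for txnb. Called member probesets numbered 5 when either of germ-free replicates 1 and 2 was left out, 4 when colonized replicate 2 was, and 6 when any other single pool was.

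**Figure D4:**
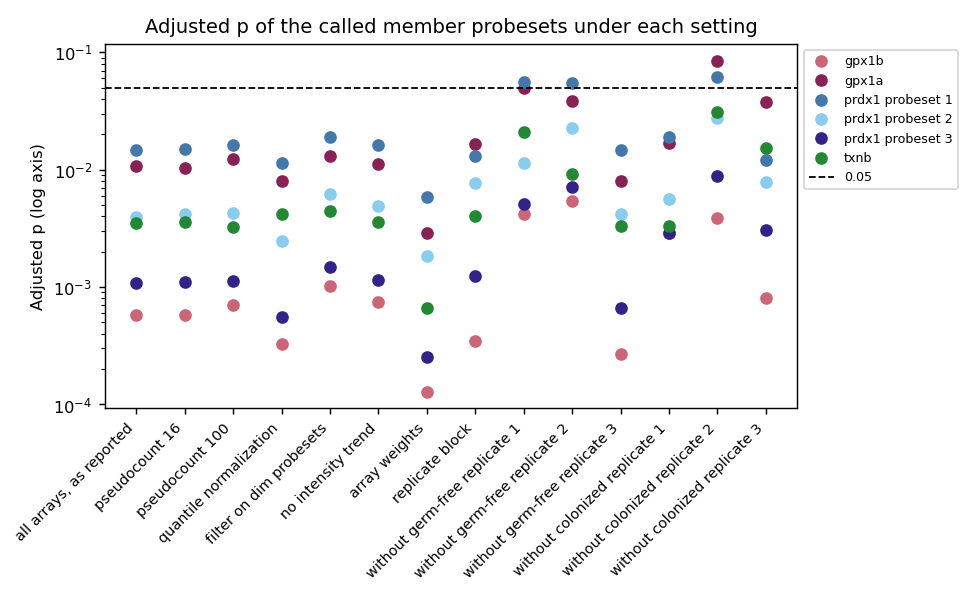
Adjusted p on a log axis for the 6 called member probesets with all arrays and under 13 other settings, with a dashed line at 0.05. Points above the line are the brightest prdx1 probeset without germ-free replicate 1, germ-free replicate 2 or colonized replicate 2 (0.0549 to 0.0623) and gpx1a without colonized replicate 2 (0.0852).

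Markers of several cell types also differed between the groups. Over all named genes 2.05% were called in either direction on the brightest probeset. Neutrophil and macrophage markers were called higher for 6 of 9 measured genes. Their summed intensity was 652 to 727 in germ-free and 1841 to 2243 in colonized pools. A large part came from mmp9 (means 74.9 and 537) and mmp13a (101 and 509). Not called were mpx, spi1b and csf1ra, with differences of 0.38, 0.31 and -0.13. Hepatocyte markers were called higher for 7 of 10, with sums of 12242 to 13502 and 18209 to 22500.3. Those called were the fibrinogen chains fga, fgb and fgg, with hpxa, cp, tfa and serpina1l, and they include acute phase genes. The lipid binding gene fabp10a of the hepatocyte list had means of 2424 and 2860.4 and was not called (limma adjusted p = 0.467). Nor were apoa2 (difference 0.17) and ahsg1, which lay lower at 247 and 148 (difference -0.64, limma adjusted p = 0.132). Erythrocyte markers were called higher for 2 of 7, hbbe2 and alas2, with sums of 1296 to 4131 and 5653 to 9246. Most of these sums came from hbae3 (means 1622 and 4999), which was not called (limma adjusted p = 0.0578). Also uncalled were slc4a1a, cahz, gata1a and hbbe3, with differences of 1.41, 0.92, 0.21 and 0.13. Enterocyte markers were called lower for 5 of 12 (sums 18791 to 20654 and 14434 to 18670.5): fabp2, fabp1b.1, fabp6, rbp2a and apoa4b.2. Of the uncalled, vil1, chia.1 and apoa1a had positive differences (0.46, 0.23 and 0.099). The uncalled apoa4b.1, chia.2, slc15a1b and chia.3 had negative ones (-0.27, -0.28, -0.19 and -0.18). Lens and retina markers were called lower for 4 of 8 (14465.5 to 14952 and 11011.5 to 12589): crybb1, opn1mw1, opn1sw2 and gnat2. In that list cryaa lay the other way, uncalled (difference 0.13). Muscle markers were called in 0 of 8. None of the measured markers was at 0 in all pools. The part of these cell types in the rise of gpx1b, gpx1a, prdx1 and txnb was not tested.

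Reduced glutathione and NADPH feed these enzymes. Of 11 measured genes of that supply, 1 was called higher and 0 lower, and the median difference was 0.13, against 2.05% of all named genes called on the brightest probeset of each and a median of 0.022. The called gene was pgd, a NADPH-forming enzyme of the pentose phosphate pathway, with a mean of 181 ± 18.0 and 313 ± 56.4 (SD, n = 3 pools per group; difference 0.68, limma adjusted p = 0.0270). The call was lost when germ-free replicate 2, or any 1 of the colonized pools, was removed (limma adjusted p = 0.0660 to 0.0823). Glutathione reductase gsr had 119.7 ± 11.2 and 194 ± 40.02 without overlap of the groups (difference 0.56, limma adjusted p = 0.0712) and was called without germ-free replicate 3 (limma adjusted p = 0.0403). The rate-limiting enzyme gene of glutathione synthesis, gclc, had 187 ± 39.7 and 207 ± 34.6, which overlapped (difference 0.13, limma adjusted p = 0.762). The NADPH-forming isocitrate dehydrogenase idh1, also singled out after its values were seen, lay lower in all colonized pools, at 787 ± 120.3 and 556 ± 77.7 (difference -0.47, limma adjusted p = 0.136). Quantile normalization gave a call for its fall (limma adjusted p = 0.0255). In the same list tktb and taldo1 of the pentose phosphate pathway lay higher in all colonized pools and were not called (differences 0.41 and 0.37, limma adjusted p = 0.0551 and 0.123). Quantile normalization also gave a call for the rise of tktb (limma adjusted p = 0.0441). With array weights tktb was called higher and idh1 lower (limma adjusted p = 0.0269 and 0.0223).

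Nrf2 is a transcription factor that raises antioxidant genes under oxidative stress and is held back by Keap1. Of 13 measured genes listed for that pathway 0 were called with all arrays, against 2.05% of all named genes, and the median was 0.039. At that share a list of this length can readily hold 0 calls. Of the 32 symbols written for the list, 19 were not found by name among the probesets, hmox1a and hmox1b among them. The list leaves out the members, among them prdx1 and txnb, and the genes of the supply list above, such as pgd and gsr. The count therefore does not speak for every gene that Nrf2 can raise. The factor gene nfe2l2a had 306 ± 88.6 and 433 ± 32.3 on its brighter probeset, without overlap (difference 0.49, limma adjusted p = 0.242), and 79.6 and 81.3 on its dimmer one. The difference of the brighter was 0.29 without germ-free replicate 3. The glutathione transferase genes gsto1, gstm.1 and gstk1, which are singled out after their values were seen, lay the other way, with all colonized pools below the germ-free pools. Their means were 106 and 63.9, 158 and 108, and 249 and 183, with differences of -0.51, -0.44 and -0.39 (limma adjusted p = 0.0712, 0.152 and 0.185). The other listed transferases overlapped between the groups: gstp1.2 and gsto2 (0.21 and 0.039), and gstt1a, gstt1b and mgst3a (-0.18, -0.21 and -0.20). In the same list fthl27 lay higher in all colonized pools, uncalled (difference 0.41, limma adjusted p = 0.217). Over 8793 named genes, 636 had all colonized pools below and 1218 all above. With the replicate block, or without germ-free replicate 2, gsto1 was called lower (limma adjusted p = 0.0404 and 0.0496). So it was with quantile normalization and with array weights (limma adjusted p = 0.0465 and 0.0170). Array weights also gave calls for the fall of gstm.1 and gstk1 (limma adjusted p = 0.0427 and 0.0460). Without germ-free replicate 3 the calls were instead 2 higher, fthl27 and sqstm1 (limma adjusted p = 0.0117 and 0.0397). The inhibitor gene keap1a had 115 ± 15.98 and 122.7 ± 18.2 (difference 0.071, limma adjusted p = 0.848). Of 21 measured genes listed as selenoproteins outside the members, as factors of their synthesis or, for msrb3, as a related enzyme, 0 were called. At a share of 2.05% this list too can readily hold 0 calls. Its median was -0.018, with differences from -0.36 to 0.20. The differences of the selenocysteine enzymes gpx1b and gpx1a, 1.56 and 0.63, lay above the highest of that list, which was 0.199. So did those of the 2 txnrd3 probesets, 0.30 and 0.39, which were not called. Of the uncalled glutathione peroxidases, gpx4a lay about at that highest value, with 0.203, and gpx4b within the list's range, with 0.094.

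Over all named genes 2.05% were called on the brightest probeset, and the median was 0.022. Of 8 measured genes listed as making peroxide or superoxide, or as tied to that process, 3 were called higher and 0 lower, and the median was 0.41. These were the NADPH oxidase subunit ncf1 of phagocytes (21.6 ± 3.16 and 64.6 ± 8.26, limma adjusted p = 0.00117), the D-amino acid oxidase dao.1 (15.9 ± 2.65 and 80.5 ± 31.3, limma adjusted p = 0.0081) and the urate oxidase uox (407 ± 26.8 and 777 ± 132, limma adjusted p = 0.00548), both oxidases of peroxisomes. The call of dao.1 was lost without colonized replicate 2 (limma adjusted p = 0.0584). The list also holds mpx, a peroxidase and not a source of peroxide, which was not called (difference 0.38, limma adjusted p = 0.130). The NADPH oxidase subunit gene cyba had 202 ± 8.48 and 222 ± 26.6 on its brighter probeset and was not called (limma adjusted p = 0.692). On its dimmer probeset it had 154 ± 10.2 and 209.9 ± 37.5 with all colonized pools above, and was not called (difference 0.37, limma adjusted p = 0.226). Of 9 metal binding proteins 4 were called higher and 0 lower, with a median of 0.51: hpxa, hpxb and cp, with differences of 2.45, 2.24 and 2.03, and transferrin tfa with 0.83. In germ-free pools hpxa and hpxb were dim, with means of 26.5 and 28.3. The colonized pools of hpxa were uneven, at 388, 372 and 158. Not called were hp, fthl30 and slc40a1, with differences of 0.51, 0.36 and 0.18. The metallothionein gene mt and fthl28 lay the other way, also uncalled (-0.35 and -0.20). The genes hpxa, cp and tfa are also in the hepatocyte marker list above, and ncf1 and mpx in that of neutrophils and macrophages. All these lists were chosen with earlier results of these data known, so their shares of calls are descriptions and not tests.

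**Figure D5:**
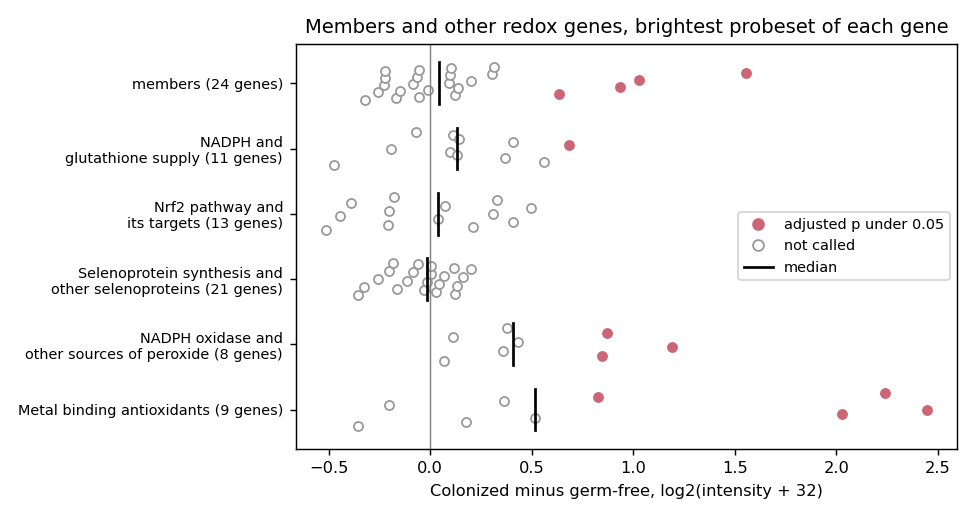
Log2 difference (colonized minus germ-free, log2 of intensity + 32) of each gene, on its brightest probeset, for the 24 member genes and 5 lists of other redox genes; filled points have an adjusted p under 0.05 and black bars mark medians. Calls are 4 of 24 for the members, 1 of 11, 0 of 13 and 0 of 21 for the next 3 lists, and 3 of 8 and 4 of 9 for the last 2.

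Candidates for likeness of profile were 4718 named genes whose brightest probeset had a mean intensity of at least 100 over all 6 pools. The genes outside the members whose 6-pool profiles lay closest to those of the 4 called genes were named, by Euclidean distance between centred log2 values. For gpx1b they were cuzd1.1, the complement gene c3a.6, angiotensinogen agt, complement factor I cfi and the complement gene c4b, at distances of 0.33 to 0.41. For gpx1a they were zgc:174888, itih3b.2, nccrp1, the purine synthesis gene paics and the keratin krt18b, at 0.15 to 0.21. For the brightest prdx1 probeset they were a2m2h, the cytochrome gene cyp1a, uox, plasminogen plg and alas2, the erythroid enzyme of haem synthesis, at 0.28 to 0.31. For txnb they were tm4sf21a, cfhl4, the cytokine signalling suppressor socs3b, the metalloreductase steap4 and the fibrinogen chain fga, at 0.26 to 0.39. The 4 sets of 5 shared 0 genes. Of the genes named here, cuzd1.1, c3a.6, agt, c4b and steap4 had germ-free means of 51.8, 45.5, 28.7, 55.0 and 76.8. These passed the minimum of 100 only through the colonized pools. A profile of 6 pools holds the group difference and little else, so likeness here is a description of these pools.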

How the data were processed

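Pools of whole larvae were measured on 1-colour Affymetrix zebrafish arrays. Biotinylated cRNA was made from 12 ug of each pool's total RNA, and 20 ug was hybridised, per the labels' protocols. The deposited values are linear intensities that the authors normalized by the invariant set method and modelled as PM-MM in dChip, per the series' design text. PM-MM subtracts mismatch signal, and invariant set scaling removes a change shared by most genes. Present and absent calls were not used here. From the table of 15617 probesets, 115 controls were left out. Gene symbols came from the platform annotation, updated through Entrez identifiers with a GRCz12tu gene table used for names only; 10795 tested probesets had 1 symbol, 135 several and 4572 none, and 0 member symbols changed. Members without a probeset under these symbols are not analysed here.

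Log2(intensity + 32) was fitted with limma 3.58.1 in R 4.3.3 on all 6 arrays, with group as the only term, an intensity trend and no filter on dim probesets. Tests were two-sided and adjusted by Benjamini-Hochberg over 15502 probesets, with calls at 0.05. The fit was tested on simulated data first. For the lists, each gene was read on its brightest probeset (by mean log2 value), and members were left out. Members, lists and named genes were chosen with earlier results of these data known. Named genes were all members, up to 4 called genes per list with the largest differences, a fixed set (not all of which is reported here) and the 5 nearest profiles per called gene. Further genes of the NADPH and Nrf2 lists, and a second cyba probeset, were named after their values were seen. The pairing rule for thioredoxins was met by txna and txnb. Alternatives were pseudocounts of 16 and 100, quantile normalization, a minimum mean intensity of 50, no trend, array weights, a replicate block and leaving out each pool. The labels do not say whether replicate numbers pair pools. Deviations of same-numbered pools correlated at -0.08 to 0.10 and those of other-numbered pools at -0.16 to 0.09. With so few pools these values do not settle whether the numbers pair pools. Promoter and protein sequences were not used here. The number of pools limits the precision, and 0 values were identical between any pair of arrays.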

Additional observations from a re-analysis of the deposited data

How the results depend on the processing

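All 6 member calls stood under both other pseudocounts, quantile normalization, the filter on dim probesets, no intensity trend, array weights and the replicate block, and 4 to 6 stood on leaving out 1 pool. Of 414 member values under 13 alternatives, 402 kept direction and side of the threshold, 4 lost the call and 8 changed sign, 0 of them of called probesets. Signs changed on leaving out 1 pool for gpx4b (-0.025 to 0.20; -0.016 without germ-free replicate 2), txnl1 (-0.049 to 0.038), txnl4a (-0.17 to 0.019) and 2 probesets of txndc5 (-0.065 to 0.17 and -0.30 to 0.062). With array weights the first of these had -0.063. Outside the members, gclc (-0.023 to 0.24) and keap1a (-0.022 to 0.16) changed sign in the same way. Over all probesets the calls numbered 263 (199 higher, 64 lower), 569 with array weights and 114 to 410 on leaving out 1 pool. Left out singly, germ-free replicates 1 and 3 gave 173 and 410, and colonized replicates 1 and 2 gave 137 and 114. Quantile normalization gave 311 (191 higher, 120 lower), so the higher share went from 75.67% to 61.41%. With the replicate block, calls over all probesets numbered 274, and member calls 6. Calls in the glutathione and NADPH list were 3 with quantile normalization (2 higher, 1 lower), 4 with array weights (3 higher, 1 lower), 2 with the replicate block (both higher) and 0 to 2 on leaving out 1 pool (all higher). In the Nrf2 list they were 1 with quantile normalization, 3 with array weights and 1 with the block, all lower, and 0 to 2 on leaving out 1 pool: 1 lower without germ-free replicate 2 and 2 higher without germ-free replicate 3. With the block and with array weights gsr was called (limma adjusted p = 0.0421 and 0.0338). The cause of these changes was not tested.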
